A study of Mus musculus with 6 samples.

Results

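Complex I (NADH:ubiquinone oxidoreductase) is the entry point of the respiratory chain. It takes electrons from NADH and pumps protons across the inner mitochondrial membrane. Most of its subunits are encoded in the nucleus, while the hydrophobic core of its membrane arm is encoded in mitochondrial DNA. The genes described here are 4 of those core subunit genes, mt-Nd2, mt-Nd4, mt-Nd5 and mt-Nd6. They were taken by symbol, with earlier results of these data known, and all 4 were found among the 25491 genes of the deposited count table. The subunits ND2, ND4 and ND5 are the antiporter-like subunits of the membrane arm, and ND6 sits near the junction with the matrix arm. Mitochondrial mRNAs are cut out of long transcripts that cover nearly the whole of each strand of the circular genome, and the ND6 gene is the protein gene read from the opposite strand to all the others.

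The cells were mesenchymal progenitors of the marrow stroma, which hold up blood formation and can turn into bone, cartilage or fat cells. They were sorted as CD45-, TER119-, CD31-, CD44-, CD51+ and SCA1- from C57BL/6J mice 14 weeks old. Every mouse had received a sublethal dose of 7 Gy of radiation 6 weeks earlier, so both groups are regenerating marrow and the series holds no unirradiated group. The groups are 3 wild type libraries and 3 Lama4-/- libraries, from animals without laminin alpha 4, a chain of the basement membrane around vessels and stroma. The series' design text speaks of 3 mice of each genotype, but no label ties a library to a single mouse. The p-values therefore reflect the spread of these libraries, and part of it may be technical. The genotypes were compared to learn how loss of this chain bears on stromal RNA after radiation.

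The 4 genes lie on the mitochondrial chromosome (chrM, GRCm38 coordinates, each a single exon). mt-Nd2 (ENSMUSG00000064345) runs from 3914 to 4951 and is 1038 bases long. mt-Nd4 (ENSMUSG00000064363) runs from 10167 to 11544 (1378 bases) and shares its first 7 bases with mt-Nd4l. mt-Nd5 (ENSMUSG00000064367) runs from 11742 to 13565 (1824 bases). mt-Nd6 (ENSMUSG00000064368) lies on the minus strand from 13552 to 14070 (519 bases), and its last 14 bases overlap the last 14 of mt-Nd5. The first 30 bases of each mRNA are shown with the start codon in capitals, because the mitochondrial code allows starts other than ATG.
mt-Nd2: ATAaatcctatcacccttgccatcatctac
mt-Nd4: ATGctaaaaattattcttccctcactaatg
mt-Nd5: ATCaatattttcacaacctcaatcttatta
mt-Nd6: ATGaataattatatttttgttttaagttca

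The 3′ ends matter for these data because the amplification kit starts from the poly(A) tail. The last 30 bases of 2 of the mRNAs follow, with the bases of the stop codon in capitals. The mt-Nd4 gene ends in a lone T, which becomes a full stop codon only when the poly(A) tail is added.
mt-Nd2: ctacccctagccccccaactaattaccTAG
mt-Nd4: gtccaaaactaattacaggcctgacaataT

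For the pair that meets tail to tail, each sequence is given 5′ to 3′ on its own strand, with the 14 shared bases in capitals.
mt-Nd5: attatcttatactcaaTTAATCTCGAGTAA
mt-Nd6: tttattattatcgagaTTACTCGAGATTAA

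The mt-Nd6 mRNA differs from the other 3 in its letters, as it is read from the other strand. It is 43.7% T and 5.97% C, with a longest run of 3 A and of 7 T. In mt-Nd2, mt-Nd4 and mt-Nd5, A made up 34.3% to 36.9% of the bases, and the longest runs of A were 8, 7 and 7. In human cells the ND6 mRNA is known to carry little or no poly(A) tail. The kit does not mark strand, so mt-Nd6 counts cannot be told apart from antisense RNA that runs on past the end of mt-Nd5.

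Stretches of mitochondrial DNA are also copied into nuclear chromosomes, and a read that fits both places cannot be assigned. All 75-base windows of each mRNA, the read length used, were compared with every other annotated transcript on both strands. In mt-Nd4, 802 of 1304 windows (61.5%) had an exact match in Gm28439, a nuclear copy on chromosome 1 (24611535 to 24612410), a gene not analysed here. In mt-Nd2, 55 of 964 windows (5.71%) matched Gm13339 on chromosome 2, which held 2 counts in wild type replicate 3 and 0 in each of the other libraries. In mt-Nd5, 29 of 1750 windows (1.66%) matched a nuclear copy, and in mt-Nd6 0 of 445 did. The treatment of such reads by the authors' counting is not given in the sources used here. For this reason the level of mt-Nd4 is uncertain, while a loss of the same part of its reads in every library would cancel from the comparison of genotypes.

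The depth differed between libraries. Totals ran from 6263830 counts in wild type replicate 2 to 15663957 in Lama4-/- replicate 1, and the 5 libraries other than wild type replicate 2 held at least 12979711. Lama4 itself was counted in each wild type library (607, 236 and 438 counts) and had 0 counts in each Lama4-/- library, with an adjusted p of 0.0497 (edgeR quasi-likelihood test). All 9 marrow stroma markers on the list used here were present, among them Cxcl12 at 3701 to 10051 CPM (counts scaled with TMM to a common library size). Of these 9, 6 had every Lama4-/- library below every wild type library, beside 12% of all tested genes, as for the receptor gene Lepr at 203 to 443 against 68.8 to 167 CPM. DESeq2 called 5 lower, beside 3.56% of all genes. With the length trend removed, the median log2 fold change of the 9 was -0.25 in place of -0.94. Then 3 in place of 6 were lower at an unadjusted edgeR p under 0.05, beside 457 in place of 1207 of all 14465 tested genes. CD44 was a negative sort marker, yet Cd44 mRNA stood at 53.2 to 151.8 CPM. Of 8 red cell markers all 8 had a positive log2 fold change, beside 6942 of all 14465 tested genes. Their summed level ran from 284 to 1770 CPM in wild type and 1428 to 3956 CPM in Lama4-/-. All 8 neutrophil markers were positive too, at a sum of 26.2 to 109 and 76.5 to 696 CPM, and no marker of either list was at 0 in every library. With limma voom, with replicate number as a block or without Lama4-/- replicate 2, 7 of the 8 neutrophil markers were positive. The 4 endothelial markers summed to 4.34 to 5.25 against 0.120 to 0.752 CPM. The 4 leukocyte markers summed to 5.48 to 24.1 CPM in wild type and 5.10 to 20.5 CPM in Lama4-/-. The 6 macrophage and osteoclast markers summed to 241 to 291 CPM against 255 to 481 CPM, most of it Ctsk. The part of other cells, or of a changed mix of stromal cells, in the values below was not tested, and in bulk RNA fewer cells of a type and less RNA per cell cannot be told apart.

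All 4 complex I mRNAs had a lower mean in Lama4-/- than in wild type with log2 fold changes (Lama4-/- minus wild type) of -1.73 to -0.94, and none passed the adjustment over all genes in the edgeR test. A negative value was found for 4 of 4 genes, beside 52% of all tested genes. These are the complex I mRNAs with the most negative log2 fold changes in the authors' deposited table, so that count is a description only. In every one of the 4, wild type replicates 1 and 3 stood above all Lama4-/- libraries while wild type replicate 2 fell among them. The groups thus overlapped for 4 of 4 genes, where 12% of all 14465 tested genes had every Lama4-/- library below every wild type library.

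**Figure D1:**
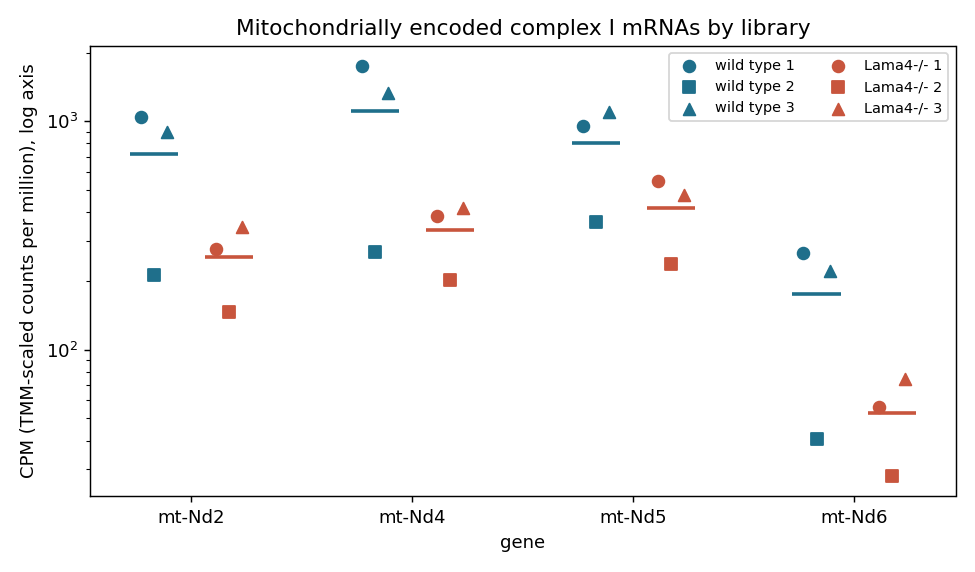
CPM of mt-Nd2, mt-Nd4, mt-Nd5 and mt-Nd6 on a log axis, with 1 symbol per library (circle, square and triangle for replicates 1, 2 and 3) and a horizontal line at each group mean. Wild type replicates 1 and 3 lie above all Lama4-/- libraries for each gene, and wild type replicate 2, at 268.5 CPM for mt-Nd4, lies among them.

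mt-Nd4, a proton-pumping subunit of the distal membrane arm, was at 1739, 269 and 1329 CPM in wild type replicates 1, 2 and 3. In Lama4-/- it was at 384, 202 and 419 CPM. Wild type replicate 2 lay between Lama4-/- replicates 2 and 1. The means were 1112 ± 759 against 335 ± 117 CPM (SD, n = 3), a log2 fold change of -1.73 (SE 0.63), with an edgeR adjusted p of 0.329.

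mt-Nd6, the subunit from the other strand, was at 264, 40.8 and 222 CPM in wild type and at 56.1, 28.1 and 74.5 CPM in Lama4-/-. It was the least abundant of the 4, with 238 to 3528 counts in a library. Its log2 fold change of -1.73 (SE 0.66, edgeR adjusted p = 0.343) was the same as that of mt-Nd4 to 2 decimals.

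mt-Nd2, a pumping subunit of the middle of the arm, was at 1044, 211 and 897 CPM in wild type and at 275, 147 and 344 CPM in Lama4-/-. Again only wild type replicate 2 reached down into the Lama4-/- range. The log2 fold change was -1.49 (SE 0.58, edgeR adjusted p = 0.350).

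mt-Nd5, the pumping subunit at the far tip of the arm and the longest of these mRNAs, was at 949, 362 and 1095 CPM in wild type. In Lama4-/- it was at 547, 237 and 475 CPM, and here too Lama4-/- replicates 1 and 3 lay above wild type replicate 2. Its log2 fold change was the smallest of the 4, at -0.94 (SE 0.46, edgeR adjusted p = 0.451).

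In the edgeR test, 0 of the 4 genes had an adjusted p under 0.05, where 0.00691% of the tested genes did on the lower side. At an unadjusted p under 0.05 there were 3 (mt-Nd2, mt-Nd4 and mt-Nd6), beside 8.34% of all tested genes, in a set chosen with earlier results known. That count was 0 without wild type replicate 1, wild type replicate 3 or Lama4-/- replicate 2, and 1 without Lama4-/- replicate 1. Over all genes, 873 of 15207, 787 of 15276, 1770 of 15402 and 1205 of 15462 were lower in those fits. Without wild type replicate 2 it was 4 of 4, beside 8.09% of all genes then tested. It was also 4 of 4 in edgeR with replicate number as a block, with the length trend removed or with no filter. Of all genes, 1290, 457 and 1910 were lower at such a p in those 3 fits. With limma voom it was 2, where 1536 of 14465 genes were lower. The smallest adjusted p in the fits listed so far was 0.153, for mt-Nd4 without wild type replicate 2 (edgeR). Among those with all libraries it was 0.249, for mt-Nd4 with no filter (edgeR). mt-Nd5 had an unadjusted edgeR p of 0.0789 with all libraries. DESeq2 called 1 of the 4, mt-Nd4 (adjusted p = 0.0472), beside 3.56% of all genes with an adjusted p. The others were at an adjusted DESeq2 p of 0.0756 (mt-Nd6), 0.0843 (mt-Nd2) and 0.255 (mt-Nd5). limma voom called 0 of the 14465 genes. The authors' deposited table gives mt-Nd4 a log2 fold change of -1.36, beside -1.72 with DESeq2 here. It also lists mt-Nd4 alone of the 4 under 0.05, at an adjusted p of 0.0382. Of the genes with an adjusted p there, 4.75% were listed as lower. mt-Nd6 stands there at 0.0619, mt-Nd2 at 0.0687 and mt-Nd5 at 0.211.

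The size of the difference moved with single libraries. Without wild type replicate 2 the log2 fold changes were -2.20 for mt-Nd4, -2.20 for mt-Nd6, -1.93 for mt-Nd2 and -1.29 for mt-Nd5, and the smallest adjusted p was 0.153, for mt-Nd4 (edgeR). Without wild type replicate 1 they were -1.25, -1.31, -1.11 and -0.79. Wild type replicate 2 was also the shallowest library. Its summed neutrophil and red cell markers stood at 26.2 and 664 CPM, and the part of depth in its low values was not tested.

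**Figure D2:**
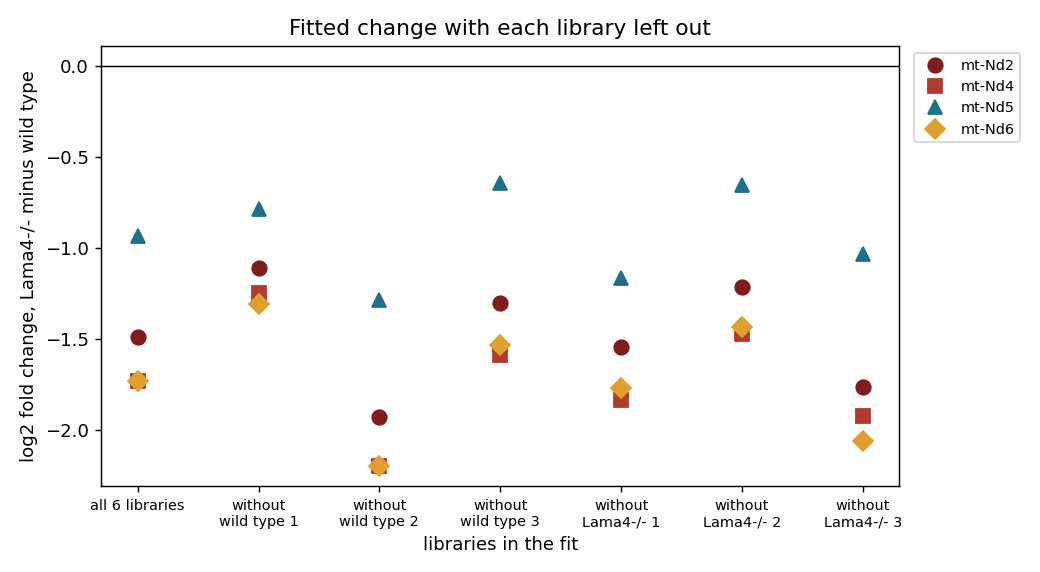
Fitted log2 fold change (Lama4-/- minus wild type) of the 4 mRNAs with all 6 libraries and with each library left out in turn. All points lie below 0. They are farthest from it without wild type replicate 2, where mt-Nd4 reaches -2.20, and mt-Nd5 lies nearest to 0 in each fit.

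The libraries of the genotypes also differed in how counts depended on transcript length. The log2 fold change and transcript length had a Spearman's rho of -0.46 over 14463 genes, which are not independent replicates, so that short transcripts tended to be higher in Lama4-/-. The 4 mRNAs are short and were lower. With the length trend taken out of each library, their log2 fold changes lay farther from 0, at -2.01 for mt-Nd4, -1.99 for mt-Nd6, -1.78 for mt-Nd2 and -1.20 for mt-Nd5 (edgeR adjusted p from 0.496 to 0.568).

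Levels were compared between genes per kilobase of annotated length. mt-Nd6 was the lowest of the 4 in 6 of 6 libraries, with a mean of 338 CPM per kb in wild type and 102 in Lama4-/-. The order of the other 3 changed between libraries. In wild type the mean level was 807 CPM per kb for mt-Nd4, 691 for mt-Nd2 and 440 for mt-Nd5, and in Lama4-/- it was 243, 246 and 230. These neighbours differed by less than the SD over libraries, which was 551 CPM per kb for mt-Nd4 in wild type. If every read in a shared window had been discarded, the level would be read per 1000 unshared windows. On that premise, which the sources do not settle, mt-Nd4 was the highest in 6 of 6 libraries, at a mean of 2216 CPM in wild type and 667 in Lama4-/-, and mt-Nd6 was the lowest in 5 of 6.

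The 4 mRNAs did not all vary alike from library to library. The log2 count ratios of mt-Nd2, mt-Nd4 and mt-Nd6 to each other had an SD over the 6 libraries of 0.13 to 0.18. The ratios of mt-Nd5 to these 3 had an SD of 0.40 to 0.56. Per mt-Nd5 count there were 1.83, 0.742 and 1.21 mt-Nd4 counts in wild type and 0.703, 0.852 and 0.882 in Lama4-/-. Per mt-Nd6 count there were 6.59, 6.59 and 5.98 mt-Nd4 counts in wild type and 6.84, 7.19 and 5.62 in Lama4-/-. mt-Nd6 thus kept a nearly fixed ratio to mt-Nd4, a gene of the opposite strand, while mt-Nd5, the gene beside it, did not. Against mt-Nd1, another complex I mRNA, mt-Nd5 was steadier, with an SD of 0.21 for the log2 ratio. The log2 ratio of mt-Nd6 to the other 3 together was -4.03 ± 0.29 in wild type and -4.29 ± 0.20 in Lama4-/-, a difference smaller than the SD in wild type. No ratio in this paragraph depends on library scaling, and the pairs other than mt-Nd6 to the rest were picked after their values were seen.

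Besides the 4 genes, the table held 4 more mitochondrially encoded mRNAs, the complex I mRNAs mt-Nd1 and mt-Nd3, the cytochrome c oxidase mRNA mt-Co1 and the cytochrome b mRNA mt-Cytb. All 4 had negative log2 fold changes closer to 0 than mt-Nd2, mt-Nd4 and mt-Nd6. These were -0.65 (SE 0.42) for mt-Nd1, -0.97 (SE 0.61) for mt-Nd3, -0.82 (SE 0.47) for mt-Co1 and -0.49 (SE 0.45) for mt-Cytb. Their median was -0.73, beside -1.61 over the 4 complex I mRNAs described here and -0.04 over all tested genes. In the edgeR test 0 of these 4 had an unadjusted p under 0.05, beside 8.34% of all tested genes, and DESeq2 called 0. That count was 3 of 4 without wild type replicate 2, beside 8.09% of all genes then tested. It was 2 of 4 with the replicate block or with the length trend removed, where 1290 and 457 of 14465 genes were lower. mt-Nd3 held only 27 to 278 counts, and 97.8% of its windows were shared with a nuclear copy. Both ribosomal RNAs of the organelle were in the table. mt-Rnr1, the 12S rRNA, was at 957, 97.3 and 692 CPM in wild type and 220, 127 and 207 CPM in Lama4-/- (log2 fold change -1.66, SE 0.70), and mt-Rnr2, the 16S rRNA, had a log2 fold change of -0.95 (SE 0.66).

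The make-up of the mitochondrial mRNA counts separated the groups where the levels did not. The 4 complex I mRNAs together held 33.9% (95% Wilson interval 33.7% to 34.1%), 23.2% (22.7% to 23.8%) and 27.7% (27.5% to 27.9%) of the counts of the 8 mRNAs in the wild type libraries. In Lama4-/- they held 20.3% (20.1% to 20.6%), 18.7% (18.4% to 19.1%) and 19.9% (19.7% to 20.2%). Intervals cover counting error only. Every Lama4-/- share lay below every wild type share, at means of 28.3% ± 5.36 and 19.7% ± 0.82 (SD, n = 3). mt-Nd4 gave the largest part of this, at 14.8%, 7.06% and 10.4% against 6.18%, 6.17% and 6.36%. mt-Cytb stood the other way, at 29.3% to 36.9% in wild type and 37.03% to 42.2% in Lama4-/-. The complex I mRNA mt-Nd1 also had a higher mean share in Lama4-/-, at 13.4% to 16.1% against 15.5% to 16.3%, with overlap. So did mt-Co1, at means of 24.6% and 25.5%, and mt-Nd3 was at 0.148% and 0.145%. The lower share was not seen for every complex I mRNA, but shares of one total offset each other. Where some fall, others must rise. In level, mt-Nd1 and mt-Cytb had negative log2 fold changes too, at -0.65 and -0.49. In share, mt-Nd5 overlapped, at 8.05% to 9.52% against 7.21% to 8.80%. So did mt-Nd6, at 1.07% to 2.24% against 0.858% to 1.13%. mt-Nd2 did not, at 5.56% to 8.85% against 4.43% to 5.23%. The 4 are the complex I mRNAs with the most negative log2 fold changes in the authors' deposited table, so the shares are given as a description with no test.

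**Figure D3:**
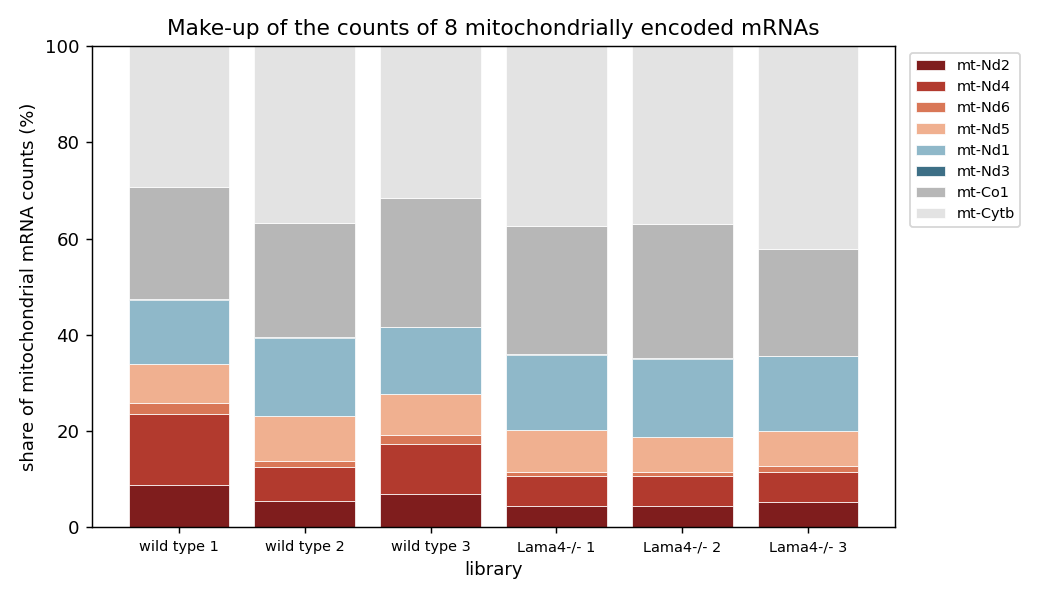
Share of each of the 8 mitochondrially encoded mRNAs in their summed counts, in percent, with 1 bar per library. The 4 red bands at the bottom (mt-Nd2, mt-Nd4, mt-Nd6 and mt-Nd5) reach 33.9%, 23.2% and 27.7% in wild type and 20.3%, 18.7% and 19.9% in Lama4-/-.

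Summed over the 4 genes, the level was 3996, 883 and 3543 CPM in wild type and 1262, 613 and 1312 CPM in Lama4-/-. Wild type replicate 2 again lay between Lama4-/- libraries. The mean log2 difference was -1.21, and it was -1.90 without wild type replicate 2. As a part of all counts of a library, the 4 genes ranged from 0.0823% to 0.410% in wild type and from 0.0628% to 0.134% in Lama4-/-. All 19 mitochondrially encoded genes of the table made up 0.427% to 1.80% of the counts in wild type and 0.447% to 0.917% in Lama4-/-.

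Complex I needs the products of both genomes. Of 38 nuclear subunit genes listed, 37 were in the table and all 37 were tested. As a list they stood on the other side of 0 from the mitochondrial mRNAs, 35 with a positive log2 fold change and 2 with a negative one, at a median of 0.48 (all tested genes -0.04). In the edgeR test 0 passed the adjustment and DESeq2 called 0. At an unadjusted p under 0.05 there were 5 on the higher side, where 4.45% of all tested genes were, and 0 on the lower. Those 5 became 13 with upper-quartile scaling or without wild type replicate 1, where 988 of 14465 and 594 of 15207 genes were higher. They became 2 without wild type replicate 3, Lama4-/- replicate 1 or Lama4-/- replicate 2. Over all genes, 397 of 15276, 461 of 15462 and 606 of 15402 were then higher. With the length trend removed the 5 became 0, where 716 of 14465 genes were higher. In 14 of the 37 every Lama4-/- library lay above every wild type library, beside 10.3% of all tested genes. Without the length trend 29 of the 37 were positive, at a median of 0.17, and without wild type replicate 2 the median was 0.27.

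Ndufs8, an iron-sulfur subunit of the matrix arm, was at 60.5, 56.0 and 40.7 CPM in wild type and at 90.03, 75.3 and 117 CPM in Lama4-/-. The groups did not overlap, and the log2 fold change was 0.84 (SE 0.26, edgeR adjusted p = 0.270), or 0.50 without the length trend. Ndufs3, another core subunit of the matrix arm, was at 23.4 ± 1.46 against 39.99 ± 8.68 CPM (SD, n = 3), with a log2 fold change of 0.78 (SE 0.27, edgeR adjusted p = 0.318). The 2 genes on the lower side were close to 0, Ndufs1 at -0.16 (SE 0.43) and Ndufb1-ps at -0.04 (SE 0.38).

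**Figure D4:**
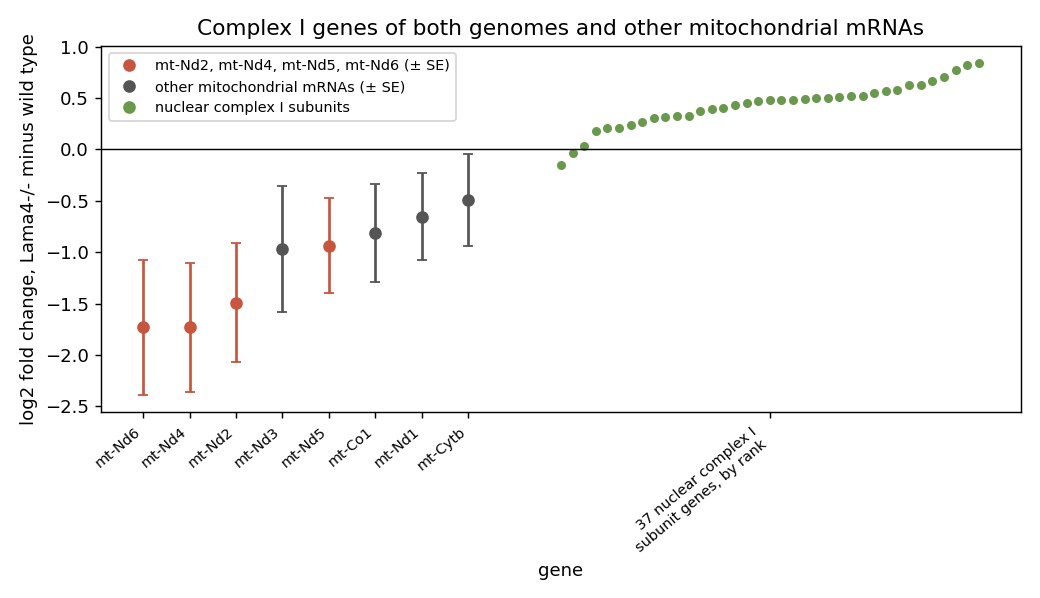
Log2 fold change (Lama4-/- minus wild type) of the 8 mitochondrially encoded mRNAs with SE bars, and of the 37 nuclear complex I subunit genes in order of value. All 8 mitochondrial mRNAs lie below 0, with mt-Nd4 and mt-Nd6 lowest at -1.73, and 35 of the 37 nuclear genes lie above 0.

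The ratio of the summed counts of the 4 mitochondrial mRNAs to those of the 37 nuclear genes was 1.75, 0.626 and 1.997 in wild type and 0.493, 0.273 and 0.516 in Lama4-/-. Every Lama4-/- library lay below every wild type library, wild type replicate 2 included. The mean log2 ratio was 0.38 ± 0.92 in wild type and -1.28 ± 0.51 in Lama4-/- (SD, n = 3). A ratio within a library is free of scaling, but the choice of members bears on it, so it is given with no test.

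Factors that build complex I or make and process mitochondrial RNA were read from lists chosen by function, and no gene on them had an adjusted edgeR p under 0.05. Of 19 tested assembly factors, 17 had a positive log2 fold change, beside 6942 of all 14465 tested genes, at a median of 0.33. With the length trend removed 15 were positive, at a median of 0.19. At an unadjusted edgeR p under 0.05 there were 0. That count was 2, on the higher side, without Lama4-/- replicate 1 or Lama4-/- replicate 2, and 1 with upper-quartile scaling or raw library totals. Over all genes, 461 of 15462, 606 of 15402, 988 of 14465 and 852 of 14465 were higher in those fits. Ndufaf6 was at 4.55 ± 1.13 against 11.8 ± 6.70 CPM and Dmac1 at 18.01 ± 4.83 against 29.6 ± 7.86 CPM (SD, n = 3). On the other side, Ndufaf4 was at 23.5 ± 4.88 against 17.8 ± 5.45 CPM and Timmdc1 at 8.04 ± 1.99 against 6.68 ± 3.00 CPM.

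The 9 tested genes of mitochondrial transcription had a median of 0.02, with 5 positive and 4 negative, and 0 at an unadjusted edgeR p under 0.05. The median was 0.28 without Lama4-/- replicate 3 and -0.11 without Lama4-/- replicate 1. Polrmt, the RNA polymerase that makes all 4 mRNAs, was at 21.8 ± 4.65 against 21.5 ± 9.73 CPM. Tfam, which packs mitochondrial DNA and starts its transcription, was at 18.5 ± 3.06 against 16.7 ± 13.5 CPM, with 4.86 to 31.5 CPM among the Lama4-/- libraries. Tefm, the elongation factor, was at 8.23, 7.19 and 0.154 CPM in wild type and 16.4, 10.8 and 8.57 CPM in Lama4-/-. Mrpl12, a ribosomal protein that also binds the polymerase, was at 31.7 ± 12.4 against 43.6 ± 4.07 CPM.

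Of 19 tested genes that process or stabilise mitochondrial RNA, 11 were positive and 8 negative, at a median of 0.23, with 2 at an unadjusted edgeR p under 0.05 on the higher side, beside 4.45% of all tested genes. The 2 became 5 without wild type replicate 2, 3 without Lama4-/- replicate 2, and 1 without wild type replicate 3 or Lama4-/- replicate 1. Over all genes, 707 of 15386, 606 of 15402, 397 of 15276 and 461 of 15462 were higher in those fits. Fastk, one form of whose protein acts on the ND6 mRNA in mitochondria, was at 66.8, 71.8 and 67.9 CPM in wild type and at 99.99, 117 and 126 CPM in Lama4-/-. Its groups did not overlap, the log2 fold change was 0.73 (SE 0.19, edgeR adjusted p = 0.238), and DESeq2 called it (adjusted p = 0.0156), alone on this list and beside 1.08% of all genes called higher. Hsd17b10, a subunit of the enzyme that cuts the 5′ ends of mitochondrial tRNAs, was at 27.2 ± 3.32 against 48.1 ± 12.7 CPM. Lrpprc, which binds and stabilises mitochondrial mRNAs, was at 12.8, 8.05 and 26.5 CPM in wild type and at 10.7, 7.22 and 0.218 CPM in Lama4-/-. Pde12, which trims their poly(A) tails, was at 62.6 ± 10.4 against 57.4 ± 9.38 CPM.

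Of 12 tested genes of mitochondrial DNA replication and its nucleotide supply, 7 were positive and 5 negative, at a median of 0.17, or -0.10 without Lama4-/- replicate 3. The replicative helicase Twnk alone of these had an unadjusted edgeR p under 0.05, at 19.7, 18.5 and 17.9 CPM in wild type against 10.7, 8.42 and 3.12 CPM in Lama4-/- (log2 fold change -1.33, SE 0.51, edgeR adjusted p = 0.343). Beside this 1 of 12 stood 8.34% of all tested genes. No gene of the list had such a p on the lower side when wild type replicate 1, 2 or 3 was left out. Over all genes, 873 of 15207, 1244 of 15386 and 787 of 15276 were lower in those fits. Rrm2b, which supplies deoxynucleotides, was at 7.15 ± 3.01 against 3.52 ± 1.33 CPM. Dguok and Tk2, the mitochondrial nucleoside kinases, were at 20.4 ± 4.80 against 29.3 ± 10.7 CPM and 14.2 ± 4.30 against 17.8 ± 6.31 CPM. Of 7 tested regulators of mitochondrial biogenesis, 3 were positive and 4 negative, at a median of -0.48, or -0.03 without Lama4-/- replicate 1. The coactivator gene Pprc1 was at 29.8, 66.3 and 68.7 CPM in wild type against 29.9, 22.2 and 26.8 CPM in Lama4-/- (log2 fold change -1.06, SE 0.36, edgeR adjusted p = 0.308). With the length trend removed its log2 fold change was -0.53, and the median of the 7 regulators was -0.24. Gabpb1, a subunit of nuclear respiratory factor 2, was at 26.6 ± 12.1 against 43.5 ± 6.94 CPM, and Esrra, an orphan nuclear receptor, at 6.42 ± 3.06 against 10.1 ± 2.99 CPM.

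The nuclear genes whose pattern was most like the 4 mRNAs were ranked by Pearson's r between their log2 CPM and the mean log2 CPM of the 4 over the 6 libraries, among 10649 genes with a mean of at least 5 CPM. They were Rassf8 (r = 0.997), Pabpc4 (0.992), Gli1 (0.991), Yy1 (0.989) and Dcaf15 (0.989). With 6 libraries of unequal depth, 202 nuclear genes had an r of 0.9 or more, so such values are a description of these libraries. Yy1, a transcription factor also on the list of biogenesis regulators, was at 73.7, 20.7 and 60.3 CPM in wild type and at 28.5, 20.2 and 31.2 CPM in Lama4-/-. Its log2 fold change was -0.96, or -0.24 with the length trend removed. Pabpc4, a cytoplasmic poly(A)-binding protein, was at 26.5, 7.36 and 23.1 CPM against 10.02, 6.84 and 10.3 CPM. Both were low in wild type replicate 2, as the 4 mRNAs were. Their edgeR adjusted p was 0.440 and 0.454.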

How the data were processed

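Per the labels' protocols, cDNA of the sorted cells was made by SMART-Seq v4 and read as 75 bp single ends from Nextera XT libraries, on either of 2 instruments; which library ran on which is not said, so instrument and genotype cannot be told apart. The submitters' processing notes name STAR 2.6.1d, featureCounts, Subread and DESeq2 with GRCm38, without settings. In the 1 table deposited by the authors, the headings raw and normalized are exchanged. The block of whole numbers was used as the deposited raw counts. The other block is a deposited signal, those counts times a constant per library (0.708 to 1.98), and was not used. The deposited comparison columns hold a mean signal, a shrunken log2 fold change with its SE (log2), a Wald score and p-values.

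Genes kept by filterByExpr (14465) were scaled with TMM and tested in R 4.3.3 by edgeR 4.0.16 (quasi-likelihood, robust), 3 libraries against 3, and p-values were adjusted after Benjamini and Hochberg over all 14465. DESeq2 1.42.0 and limma 3.58.1 were alternatives. SEs were derived from the fold change and its F statistic. Transcript lengths and sequences came from GENCODE M21 (GRCm38). Library depths of 6263830 to 15663957 counts put every member at 238 counts or more per library. The genes, lists and tests were chosen with earlier results of these data known, so no p is given for sums, shares or ratios over the members; exact permutation tests of 3 libraries against 3 could not go below 0.10. Named genes were the members, the other mitochondrial mRNAs, the 2 smallest p in each direction of each list at a mean of at least 5 CPM, the 5 nuclear genes most like the members, and nuclear copies of the members.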

Additional observations from a re-analysis of the deposited data

How the results depend on the processing

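Over 68 alternative fits of the 4 mRNAs (scaling, filter, tool, moderation, block, length trend, library totals without mitochondrial genes, each library left out), all 68 log2 fold changes were negative and 1 passed an adjusted p of 0.05, that of mt-Nd4 with DESeq2 (-1.72). Their adjusted p ran from 0.0472 to 0.813. With each library left out, log2 fold changes ranged from -2.20 to -1.25 (mt-Nd4), -2.20 to -1.31 (mt-Nd6), -1.93 to -1.11 (mt-Nd2) and -1.29 to -0.65 (mt-Nd5); with 2 libraries in a group they rest on fewer samples. The 45 alternatives of the sums, shares and ratios kept their direction. Without wild type replicate 2 the summed level of the 4 genes differed by -1.90 in place of -1.21 on the log2 scale, and without wild type replicate 1 by -0.82.

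The number of genes past the adjustment, 1 in the edgeR test, was 0 with upper-quartile scaling, raw library totals, limma voom, no robust moderation, the replicate block or the length trend removed, 12 with no filter, 741 with DESeq2, and 0 to 1 with a library left out. The cause was not tested. Before adjustment, 644 genes were higher and 1207 lower at p under 0.05, against 988 and 967 with upper-quartile scaling, 852 and 1022 with raw totals, and 716 and 457 with the length trend removed. Replicate numbers are shared by the genotypes, but same-numbered libraries deviated together with r = 0.081, 0.18 and 0.046 across genes, below the 0.1 set for a pairing in 2 of the 3 pairs, so they were not treated as pairs. Each library did correlate best with its own number. With the replicate block the log2 fold changes were -1.43 (mt-Nd4), -1.47 (mt-Nd6), -1.28 (mt-Nd2) and -0.87 (mt-Nd5), each at an edgeR adjusted p of 0.3005. The 4 mRNAs had 238 to 23256 counts per library, and the part of depth in their values was not tested.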
